A study of Mus musculus with 16 samples.

Results

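Genes that mark bile duct cells and liver progenitor cells were followed in liver tumours of mice that lack Axin1 in hepatocytes. The set holds 9 genes chosen by symbol: the transcription factor Sox9, the surface proteins Prom1, Cd24a and Epcam, the keratins Krt7, Krt19 and Krt23, the tight junction protein Cldn4 and the secreted glycoprotein Spp1. Of these, 8 were found by symbol among 23279 genes with an annotated symbol, each with 1 probe set, and Spp1 was not analysed here.

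All 16 arrays came from male mice aged 16 months, 1 array per sample of whole liver or tumour tissue. There were 3 arrays of control liver from mice labelled only as non-deleted (mice 10, 11 and 12). The 5 adjacent livers (mice 81, 121, 123, 124 and 1931) and the 8 tumours (1 each from mice 81, 90, 93, 123 and 124, and 3 from mouse 121) came from animals with Axin1 fl/fl alleles and the Alfp-Cre transgene. Alfp-Cre is described in the labels as active in embryonic hepatocytes. Which other liver cells keep Axin1 was not measured here, and the controls' own alleles are not stated. The 3 tumours of mouse 121, of which a single tumour has no number and the others are numbered 2 and 3, were averaged for every test, which left 6 tumour mice. The values are the authors' log2 expression values, on which a difference of 1 is a doubling, and array medians lay between 4.37 and 4.50. Axin1 itself ran from 5.07 to 5.48 in controls, from 3.90 to 4.39 in adjacent liver and from 3.95 to 4.81 in tumours, with no overlap between controls and the other groups. Alb, the hepatocyte's main secreted protein, stood at 12.4 ± 0.25 in tumours (SD, n = 6) and 12.4 ± 0.05 in adjacent liver (SD, n = 5). These lie near the highest value on the arrays, 12.85, and Alb does not tell the 2 tissues apart. The RNA was that of whole tissue, in which fewer cells of a type and less RNA per cell cannot be told apart.

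In healthy liver, cholangiocytes line the bile ducts and form a small share of the cells. They arise in the embryo from the same bipotent hepatoblasts as hepatocytes, under Notch signals and the factors Sox9, Sox4 and Onecut1, and they keep simple epithelial keratins, Epcam and tight junction proteins. In injured liver, small ducts with immature features spread from the portal tracts, the ductular reaction, and hepatocytes themselves can switch on Sox9, Spp1 and Cd24a. In hepatocellular carcinoma, Krt19, Epcam, Prom1 and Cd24a are widely used as stem or progenitor markers.

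The markers did not move as a block. Prom1 stood apart in size: it was 2.03 higher on the log2 scale in tumours than in adjacent liver and 2.59 higher than in controls. Sox9 and Cd24a were higher in tumours than in adjacent liver by 0.89 and 1.06. The duct keratins Krt7 and Krt19 and the adhesion protein Epcam were high in the tumour of mouse 81 and tumour 3 of mouse 121 and lay among or near the non-tumour values in the others. None of the 8 markers passed an adjusted p of 0.05 in limma in any of the 3 comparisons, with all mice in the fit.

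The fit called 36 of 23279 genes between tumour and adjacent liver, 0.155%, and 0 of the 8 markers. At an unadjusted p under 0.05, 3 markers (Prom1, Sox9 and Cd24a) were higher in tumours, against 6.95% of all genes. No marker had every tumour mouse above every adjacent liver, which 1.12% of genes had. Between tumour and control, 6 genes were called, 0.0258%, and 0 markers, while Prom1 was the only marker higher at an unadjusted p under 0.05, against 5.65% of genes. Prom1 was also the only marker with every tumour mouse above every control, which 2.11% of genes had. Between adjacent and control liver limma called 0 genes (0%), although 1059 genes had an unadjusted p under 0.05, and 0 markers were called. No marker was higher there at an unadjusted p under 0.05 (1.61% of genes) or without overlap (2.18% of genes). The comparisons share samples, so their values are given side by side and were not set against each other. The median difference over the 8 markers was 0.29 for tumour minus adjacent liver, with 6 of 8 higher, beside a median of -0.027 and 44% higher over all genes. For tumour minus control it was 0.20 (7 of 8 higher, and 42.2% of all genes), and for adjacent minus control -0.0021 (4 of 8 higher, and 48.5% of all genes).

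**Figure D1:**
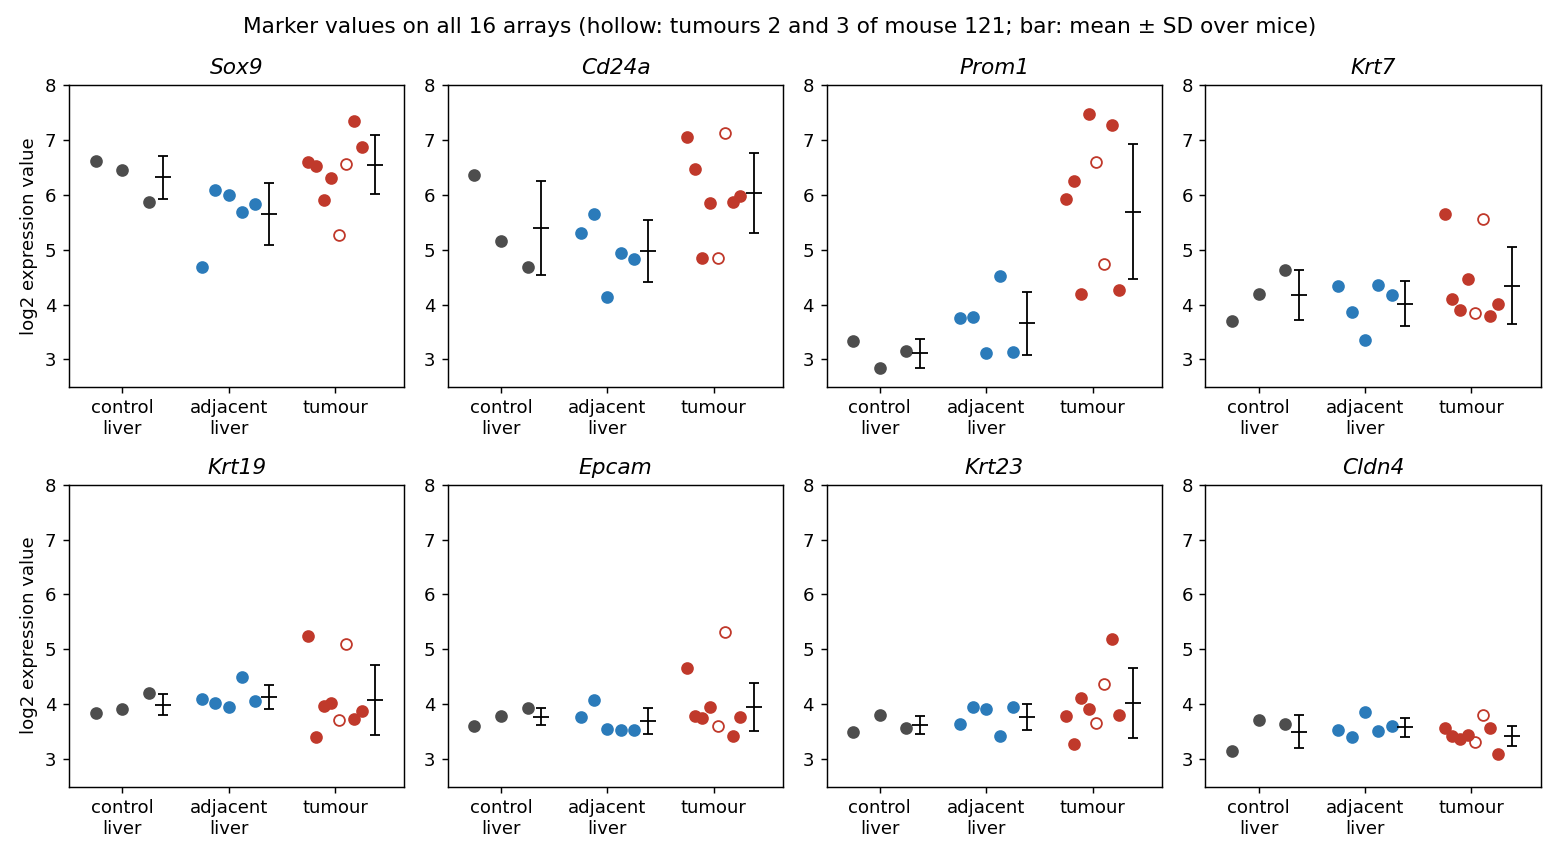
Log2 expression value (vertical axis) of each of the 8 markers on every array, by group (control, adjacent liver, tumour), with bars for the group mean and SD over mice. Prom1 tumour values run from 4.19 to 7.47, while the 8 non-tumour arrays run from 2.83 to 4.52.

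Sox9 is the transcription factor that marks the ductal plate and adult bile ducts. Its values in control liver were 6.62, 6.45 and 5.87. Adjacent liver gave 4.68 in mouse 81, 6.09 in mouse 121, 5.99 in mouse 123, 5.69 in mouse 124 and 5.82 in mouse 1931. Across the 6 tumour mice Sox9 ran from 5.90 to 7.34 with a median of 6.56. Tumour 2 of mouse 121, averaged there with the other tumours of that mouse, was at 5.26, under all controls and all adjacent livers but that of mouse 81. Adjacent liver lay lowest in the group means, and controls and tumour mice overlapped over most of their range. The tumours of mice 123 and 124, at 7.34 and 6.88, were the only arrays above all 8 non-tumour arrays. The group means were 6.31 ± 0.39 in controls (SD, n = 3), 5.65 ± 0.57 in adjacent liver (SD, n = 5) and 6.55 ± 0.53 in tumours (SD, n = 6). Tumour exceeded adjacent liver by 0.89 (SE 0.29, 1.86-fold, limma adjusted p = 0.151), with all 6 tumour mice above the adjacent mean. Against controls the difference was 0.23 (SE 0.33, adjusted p = 0.828, 95% interval -0.48 to 0.94). Adjacent liver was 0.66 below controls on the log2 scale (difference -0.66, SE 0.34, adjusted p = 0.999), with 5 of 5 adjacent livers under the control mean. Adjacent liver of mouse 81 was the lowest Sox9 value of all 16 arrays.

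Prom1 encodes prominin-1 (CD133), a membrane glycoprotein of cell protrusions found on bile duct cells and used as a marker of tumour-initiating cells. In control liver it read 3.34, 2.83 and 3.15. Adjacent liver gave 3.75, 3.78, 3.12, 4.52 and 3.13 in mice 81, 121, 123, 124 and 1931. Tumours gave 5.92 in mouse 81, 6.25 in mouse 90, 4.19 in mouse 93, 7.27 in mouse 123 and 4.26 in mouse 124. In mouse 121 the unnumbered tumour gave 7.47, tumour 2 gave 6.59 and tumour 3 gave 4.74. All 8 tumour arrays lay above all 3 controls, 6 lay above all non-tumour arrays, and the tumours of mice 93 and 124 lay under adjacent liver of mouse 124. Group means were 3.11 ± 0.26 (SD, n = 3), 3.66 ± 0.57 (SD, n = 5) and 5.69 ± 1.22 (SD, n = 6). Tumour exceeded adjacent liver by 2.03 (SE 0.48, 4.10-fold, 95% interval 1.01 to 3.06, limma adjusted p = 0.0795) and control by 2.59 (SE 0.56, 6.0-fold, 95% interval 1.39 to 3.78, limma adjusted p = 0.102). In both comparisons the reference was dim, with all 3 controls and 4 of the 5 adjacent livers under 4.43, the median of all values on the arrays, so the folds are those of the array scale. Adjacent liver was 0.55 above control (SE 0.58, adjusted p = 0.999). Without the tumour of mouse 93, Prom1 passed in both tumour comparisons, at 2.34 (limma adjusted p = 0.0157) against adjacent liver and 2.89 (limma adjusted p = 0.0246) against control. The same omission took the calls over all genes from 36 to 743 and from 6 to 242.

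Cd24a is a small glycosylated surface protein carried by immature epithelial cells, bile duct cells and several blood cells, neutrophils and B cells among them. Controls gave 6.35, 5.15 and 4.68, and adjacent liver gave 5.30, 5.64, 4.13, 4.94 and 4.82 in mice 81, 121, 123, 124 and 1931. Over the 6 tumour mice it ran from 4.85 to 7.06 with a median of 5.96. The tumours of mice 81 and 90 and tumour 3 of mouse 121, at 7.06, 6.47 and 7.12, exceeded all non-tumour arrays, and 5 of 6 tumour mice lay above all adjacent livers. Control mouse 10 was the highest control for Cd24a, and on that array the mean log2 value of 6 neutrophil genes was 6.01, against 3.54 to 3.76 on the other controls. The part of those cells in the Cd24a value was not tested. Group means were 5.39 ± 0.86 (SD, n = 3), 4.97 ± 0.57 (SD, n = 5) and 6.03 ± 0.73 (SD, n = 6). Tumour exceeded adjacent liver by 1.06 (SE 0.38, 2.08-fold, limma adjusted p = 0.19) and control by 0.63 (SE 0.44, adjusted p = 0.594). A difference of at least 1 between tumour and adjacent liver was reached by 1.5% of all genes. Adjacent liver minus control was -0.43 (SE 0.46, adjusted p = 0.999) and became 0.05 without control mouse 10. Without that mouse tumour exceeded control by 1.11.

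Epcam, an adhesion molecule of bile duct epithelium and of fetal liver cells, gave 3.60, 3.79 and 3.92 in controls and 3.76, 4.08, 3.55, 3.53 and 3.54 in adjacent liver of mice 81, 121, 123, 124 and 1931. Its tumour values were 4.66 in mouse 81 and 5.32 in tumour 3 of mouse 121, and 3.43 to 3.95 on the other 6 arrays. Only the 2 high tumours exceeded the non-tumour range. Tumour minus adjacent liver was 0.26 (SE 0.19, limma adjusted p = 0.566, 95% interval -0.15 to 0.66), or 0.12 without the tumour of mouse 81, and tumour minus control 0.17 (SE 0.22, adjusted p = 0.802).

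Krt7 and Krt19 encode the intermediate filament keratins by which bile ducts are usually stained, and normal hepatocytes carry little of either. Krt7 gave 3.71, 4.19 and 4.63 in controls, and 4.34, 3.86, 3.36, 4.35 and 4.17 in adjacent liver of mice 81, 121, 123, 124 and 1931. In tumours it reached 5.65 in mouse 81 and 5.56 in tumour 3 of mouse 121 and lay between 3.79 and 4.47 on the other 6 arrays. Krt19 gave 3.85, 3.92 and 4.21 in controls, and 4.10, 4.03, 3.96, 4.50 and 4.05 in adjacent liver in the same order of mice. Its tumour values were 5.24 and 5.10 in the same tumours, and 3.40 to 4.02 on the others. Both keratins thus had a pair of tumours above every non-tumour array and 6 tumours at non-tumour levels or below, since Krt19 in the tumour of mouse 90, the tumour of mouse 123 and tumour 2 of mouse 121 lay under all 8 non-tumour arrays. How many of all genes lay under them in those tumours was not computed. The mean difference between tumour and adjacent liver was 0.33 for Krt7 (SE 0.31, limma adjusted p = 0.667, 95% interval -0.33 to 0.99), and 0.066 without the tumour of mouse 81. For Krt19 it was -0.05 (SE 0.25, limma adjusted p = 0.955, 95% interval -0.58 to 0.49), and its sign turned in 6 of 25 alternative analyses.

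Krt23, a keratin of injured and inflamed liver, was highest in another tumour, but like Krt7, Krt19 and Epcam it was high in tumour 3 of mouse 121. Controls gave 3.50, 3.81 and 3.57, and adjacent liver of mice 81, 121, 123, 124 and 1931 gave 3.64, 3.96, 3.91, 3.41 and 3.95. The tumour of mouse 123 stood highest at 5.18, tumour 3 of mouse 121 gave 4.37, the tumour of mouse 93 gave 4.11 and the remaining 5 ran from 3.28 to 3.91. The mean difference between tumour and adjacent liver was 0.25 (SE 0.25, limma adjusted p = 0.687), or 0.019 without the tumour of mouse 123, and between tumour and control 0.40 (SE 0.29, adjusted p = 0.609). Cldn4, a claudin that seals tight junctions in ducts and other epithelia, was at 3.15 to 3.72 in controls, 3.40 to 3.86 in adjacent liver and 3.09 to 3.80 in tumours, with full overlap of the groups. Its tumour value was lower than in adjacent liver in the mean (difference -0.16, SE 0.12, limma adjusted p = 0.589, 95% interval -0.43 to 0.10).

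Signal limited what the dimmer probe sets could show. The median of all deposited values was 4.43. Sox9 exceeded it on 16 arrays, Cd24a on 15, Prom1 on 7, Krt7 on 4, Krt19 on 3, Epcam on 2, Krt23 on 1 and Cldn4 on 0. Hence 5 of the 8 markers would pass a filter asking for 3 arrays above that level, and for Krt7, Krt19, Prom1, Epcam and Krt23 the arrays above it were mostly tumours with high values. Array values of dim probe sets tend to understate differences. This bears on Krt7, Krt19, Epcam, Krt23 and Cldn4, and on the folds of Prom1, whose reference groups were dim: 1 of 8 non-tumour arrays lay above the median.

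**Figure D2:**
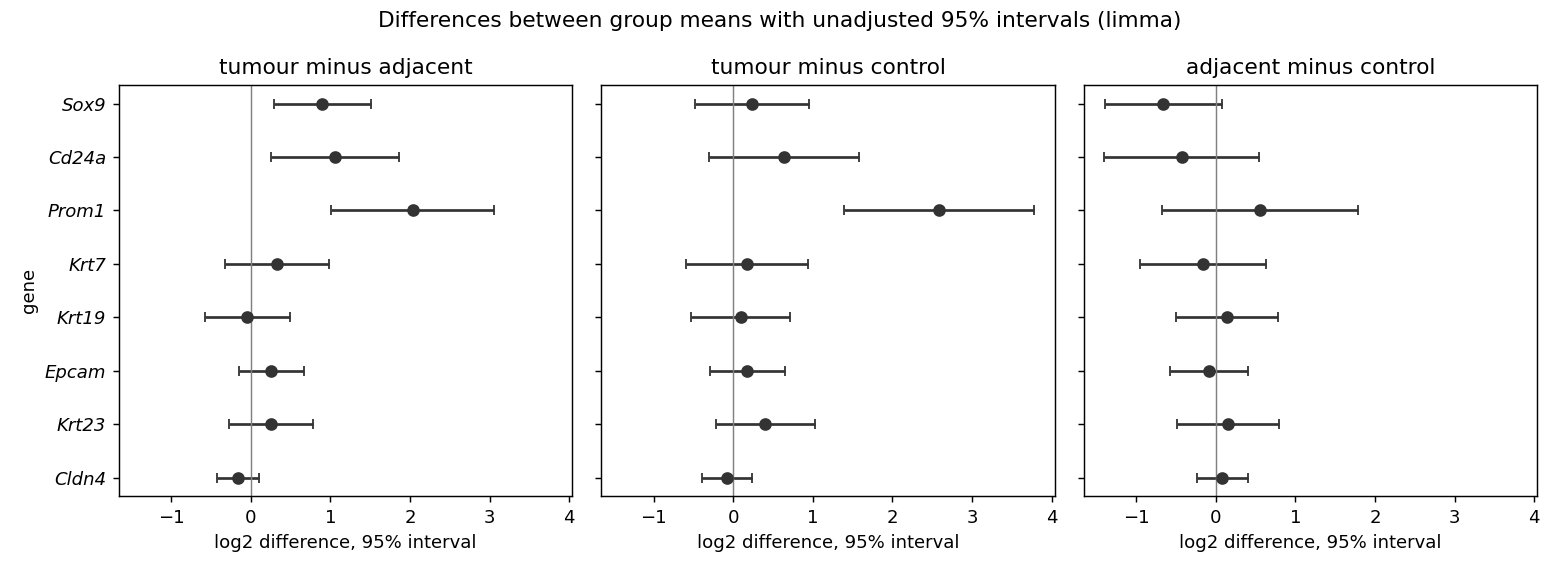
Log2 difference (horizontal axis) of each marker in the 3 comparisons, tumour minus adjacent liver, tumour minus control and adjacent minus control, with the 95% interval of the limma fit. For Prom1 both tumour intervals lie above 0, from 1.01 to 3.06 and from 1.39 to 3.78, and for Krt19 all 3 intervals span 0.

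Seen tumour by tumour, the markers formed several patterns. Tumour 3 of mouse 121 had 6 of the 8 markers above all 8 non-tumour arrays (Krt7, Krt19, Krt23, Epcam, Cd24a and Prom1), where 9.57% of all genes were. The tumour of mouse 81 had 5 (Krt7, Krt19, Epcam, Cd24a and Prom1), where 16.2% of all genes were. The tumour of mouse 123 had 3 (Sox9, Krt23 and Prom1), with 16.1% of genes. The tumour of mouse 90 had 2 (Cd24a and Prom1), with 17.2% of genes. The remaining tumours had 1 each: Prom1 in the unnumbered tumour (13.7% of genes) and in tumour 2 (14.2%) of mouse 121, Sox9 in the tumour of mouse 124 (11.8%) and Krt23 in the tumour of mouse 93 (10.5%). In those last 4 tumours 1 marker of 8 is close to the share of all genes. Below all 8 non-tumour arrays lay Krt19 and Krt23 in the tumour of mouse 90, Krt19 and Epcam in that of mouse 123, Krt19 in tumour 2 of mouse 121 and Cldn4 in the tumour of mouse 124. The share of all genes below that range was not computed, so these counts cannot be read as a loss of the markers. No marker was above the non-tumour range in all 8 tumours: Prom1 was above it in 6 tumours, Cd24a in 3, Krt23 in 3, and Sox9, Krt7, Krt19 and Epcam in 2 each. These counts take the 3 tumours of mouse 121 singly. The share of all genes above the range in as many tumours was not computed.

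Tumour 3 of mouse 121 and the tumour of mouse 81 shared values above the mean of the 8 non-tumour arrays in Krt7 (1.48 and 1.58), Krt19 (1.02 and 1.17), Epcam (1.59 and 0.94) and Cd24a (1.99 and 1.93). Their mean over 12 biliary factors and Notch genes was also alike (0.34 and 0.37). So was that over 13 ductular reaction and progenitor genes (0.77 and 0.75). Neither mean was particular to this pair. In the same order of lists, the tumour of mouse 90 had 0.43 and 1.16, and the unnumbered tumour of mouse 121 0.47 and 1.06. The tumour of mouse 123 had 0.33 and 0.96, and tumour 2 of mouse 121 0.31 and 4.3e-05. The tumour of mouse 93 had 0.016 and 0.084, and that of mouse 124 0.14 and 0.38. The mature bile duct genes were not alike in the pair. The mean of 10 genes of mature cholangiocyte transport and cilia was 0.72 above the non-tumour mean in tumour 3 of mouse 121, with 6 of the 10 above all non-tumour arrays. In the tumour of mouse 81 it was -0.36, with 0 of the 10 above. Pkhd1, the ciliary protein fibrocystin, was at 1.29 and -0.81 in that order, and the apical mucin Muc1 at 1.35 and -0.27. The chloride channel Cftr was at 0.72 and 0.12, and the RNA-binding ciliary regulator Bicc1 at 2.03 and 0.86. Pkhd1, Muc1, Cftr and Bicc1 were chosen after their values were seen. High values of the mature list were not particular to tumour 3. Its mean was 0.49 in the unnumbered tumour of mouse 121, with 5 of the 10 above all non-tumour arrays. In the tumour of mouse 90 it was 0.48, with 4 above, and in the remaining tumours 0.02 to 0.17. Pkhd1, Muc1 and Bicc1 were at 1.32, 0.81 and 2.09 in that unnumbered tumour, and at -0.97, -0.02 and 2.39 in the tumour of mouse 90. For other cells, the mean of 9 hepatocyte genes was -0.04 in tumour 3 of mouse 121 and -0.60 in the tumour of mouse 81. On the non-tumour arrays it ran from -0.095 to 0.174. In the tumour of mouse 81 Cyp2e1 was at -3.66 and the other hepatocyte genes at -0.605 to 0.378. Some other lists also left the non-tumour range. The mean of 8 endothelial genes was 0.40 in tumour 3 of mouse 121 and -0.43 in the tumour of mouse 81 (non-tumour -0.246 to 0.28). In the same order, that of 10 stellate genes was 0.75 and 0.31 (non-tumour -0.535 to 0.596). That of 5 proliferation genes was 1.17 and 2.09 (non-tumour -0.636 to 0.762). The lymphocyte, macrophage and mesothelial lists lay within the non-tumour range in both tumours. The mean of 7 lymphocyte genes was 0.51 and 0.38 (non-tumour -0.297 to 0.666). That of 11 macrophage genes was 0.63 and -0.26 (non-tumour -0.855 to 1.53). The mean of 6 mesothelial genes, cells that also carry keratins, was 0.12 and 0.09 (non-tumour -0.143 to 0.154). Of those 6 genes, 4 were under 4.43 on every array. The part of other cell types in the keratin and Epcam values was not tested.

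**Figure D3:**
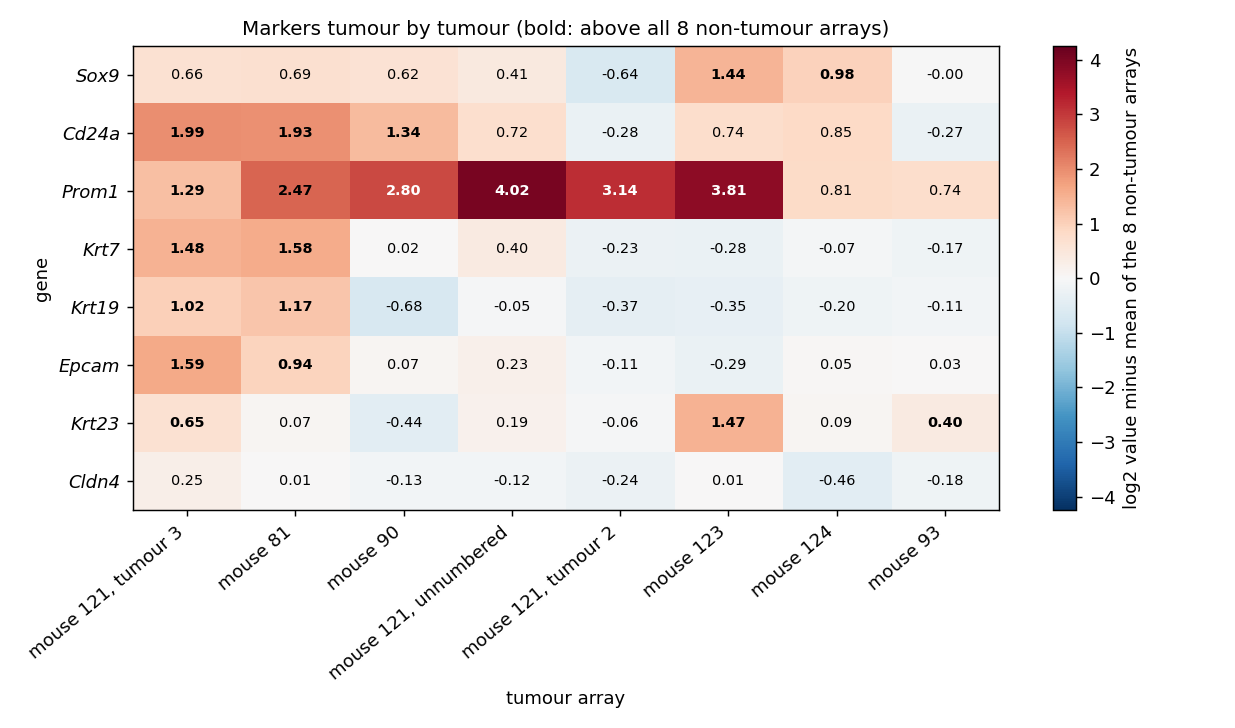
Heat map of the 8 markers (rows) in the 8 tumour arrays (columns), as the log2 value minus the mean of the 8 non-tumour arrays, with bold for values above all 8 of them. Krt7, Krt19 and Epcam are bold in tumour 3 of mouse 121 and the tumour of mouse 81 only, and Prom1 is bold in 6 tumours.

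The 3 tumours of mouse 121 differed from each other, for some markers no more than the non-tumour arrays did. Prom1 spanned 2.73 within that mouse and 3.08 across the 6 tumour mice, Cd24a 2.26 and 2.21, Krt7 1.72 and 1.86, Krt19 1.39 and 1.85, Sox9 1.30 and 1.44. Epcam spanned more within mouse 121 (1.71) than across the mouse means (1.23), which average its 3 tumours, and Krt23 less (0.71 against 1.91). The 8 non-tumour arrays spanned more than the tumours of mouse 121 for Sox9 (1.94) and Cldn4 (0.70 against 0.49), and nearly as much for Cd24a (2.22). They spanned less for Prom1 (1.68), Krt7 (1.26), Krt19 (0.65), Epcam (0.55) and Krt23 (0.54). The order of tumours 3 and 2 depended on the marker: Prom1 was 4.74 in tumour 3 and 6.59 in tumour 2, while Cd24a was 7.12 and 4.85 and Sox9 6.56 and 5.26. Across genes, the SD between tumour mice was larger than between adjacent livers for 7 of the 8 markers and for 57.9% of all genes.

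In the 4 mice with both tissues the tumour could be set against the same animal's liver. Prom1 was higher in the tumour by 2.17 in mouse 81, 2.49 in mouse 121 and 4.15 in mouse 123, and differed by -0.25 in mouse 124. Cd24a was higher in 4 of 4 (1.76, 0.30, 1.73 and 1.04 in mice 81, 121, 123 and 124). Sox9 was higher by 1.92, 1.35 and 1.19 in mice 81, 123 and 124 and differed by -0.04 in mouse 121. Krt23 was also higher in 4 of 4, by 0.15, 0.02, 1.27 and 0.39. For mouse 121 these are differences of the averaged tumours, and its single tumours did not all lie higher. Krt23 was 3.91 in its unnumbered tumour, 3.66 in tumour 2 and 4.37 in tumour 3, against 3.96 in its adjacent liver. Cd24a was 5.85, 4.85 and 7.12 in that order, against 5.64. The share of all genes higher in 4 of 4 mice was not computed. Krt7 ran from -0.35 to 1.32, Krt19 from -0.62 to 1.14, Epcam from -0.12 to 0.90 and Cldn4 from -0.43 to 0.12, with both signs for each. With mouse as a replicate block in these 4 pairs, the mean difference was 2.14 for Prom1 (SE 0.63, limma adjusted p = 0.256), 1.21 for Cd24a (SE 0.26, limma adjusted p = 0.171) and 1.10 for Sox9 (SE 0.30, limma adjusted p = 0.235). This paired fit, on 8 mouse-level values without controls or unpaired mice, called 0 of all genes, against 36 in the fit of all mice. With mouse as a random replicate block on all 16 arrays, 206 genes and 0 markers were called.

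**Figure D4:**
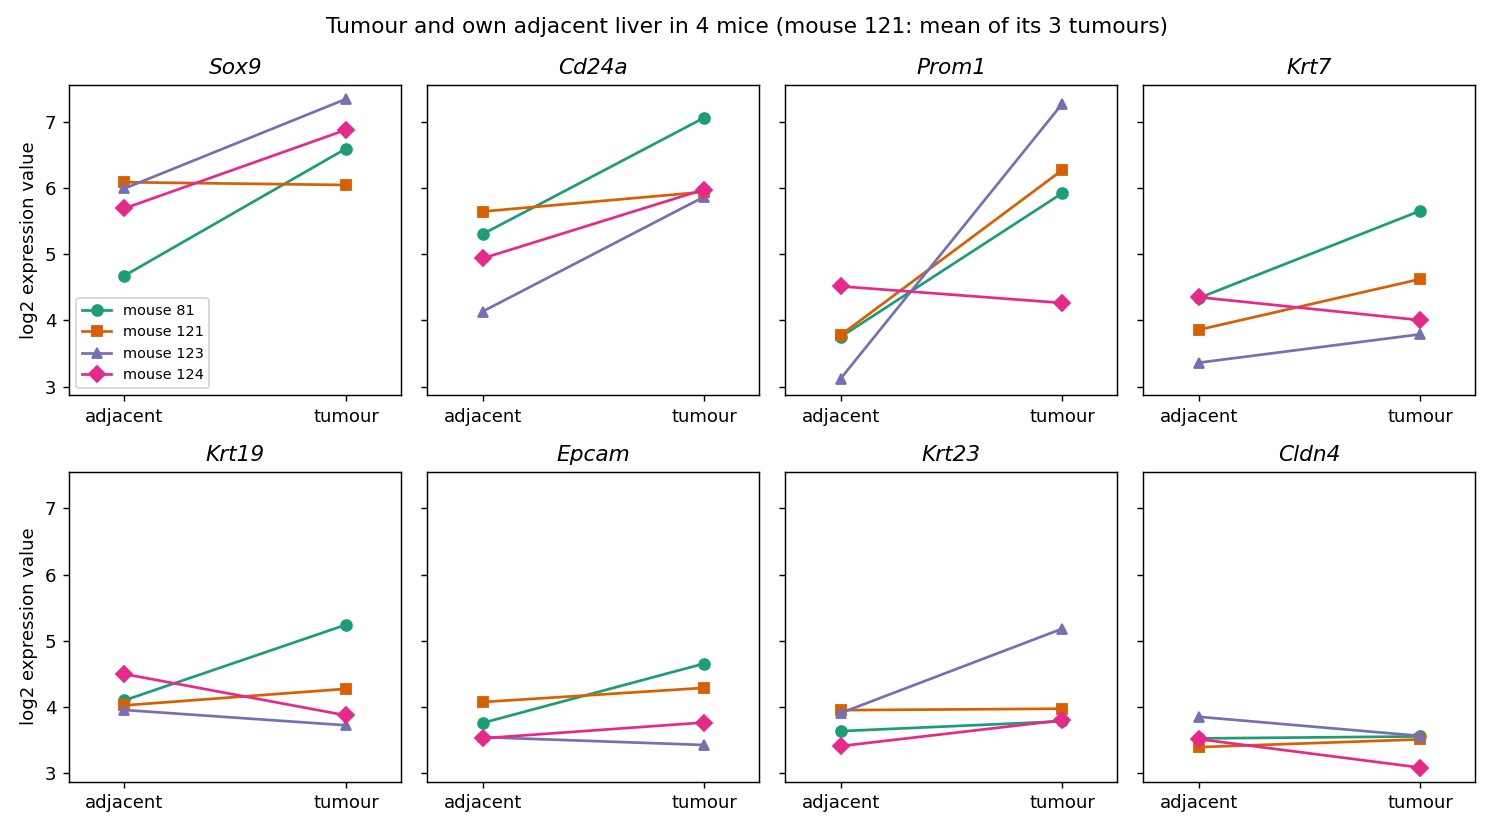
Log2 expression value (vertical axis) of the 8 markers in adjacent liver and tumour of the 4 mice that have both, with a line for each mouse and the 3 tumours of mouse 121 averaged. Cd24a and Krt23 lines go up in all 4 mice, and the Prom1 line of mouse 123 is the steepest, from 3.12 to 7.27.

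RefSeq windows of 250 bases before an annotated start (build GRCm38.p6) were at hand for 5 of the 8 markers. Those of Krt7 and Epcam are shown because these genes were high in the same tumours, and that of Prom1 as the marker high in other tumours too. Capitals mark matches, on either strand, to the GC box GGGCGG, the AP-1 motif TGANTCA, the TEAD motif GGAATG or the SOX motif ACAATG, and no matches overlapped.
Krt7, chr15:101412153-101412402, plus strand: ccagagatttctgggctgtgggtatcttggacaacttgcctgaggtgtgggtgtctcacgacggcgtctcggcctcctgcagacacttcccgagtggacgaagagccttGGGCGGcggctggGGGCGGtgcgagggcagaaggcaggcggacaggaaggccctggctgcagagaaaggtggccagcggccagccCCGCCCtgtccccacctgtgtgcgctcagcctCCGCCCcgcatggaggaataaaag
Epcam, chr17:87635729-87635978, plus strand: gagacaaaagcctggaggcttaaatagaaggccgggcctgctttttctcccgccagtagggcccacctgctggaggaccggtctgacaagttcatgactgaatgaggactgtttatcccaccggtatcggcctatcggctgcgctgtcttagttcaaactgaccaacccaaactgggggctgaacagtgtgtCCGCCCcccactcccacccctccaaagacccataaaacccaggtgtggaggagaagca
Prom1, chr5:44101737-44101986, minus strand: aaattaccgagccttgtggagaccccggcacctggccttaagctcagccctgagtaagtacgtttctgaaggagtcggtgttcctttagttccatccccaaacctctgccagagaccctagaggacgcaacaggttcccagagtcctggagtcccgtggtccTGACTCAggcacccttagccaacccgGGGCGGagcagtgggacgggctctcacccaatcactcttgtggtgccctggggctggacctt
The Krt7 window holds 4 GC boxes and 16 CpG dinucleotides, the Epcam window 1 GC box and 8 CpG, and the Prom1 window 1 GC box, 1 AP-1 match and 9 CpG, beside a median of 6 CpG over 32851 windows. A GC box occurs in 32.7% of those windows, an AP-1 match in 6.75%, a TEAD match in 12.6% and a SOX match in 10.7%. None of the 3 windows holds a TEAD or SOX match, which says only that these letters are not in them. The arrays do not measure binding, and the deposited Prom1 value does not tell its 2 annotated starts apart.

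Other genes of the biliary programme were read from lists. Of 12 factors of biliary fate and the Notch route, 1 rose between adjacent liver and tumour, 0 fell, and 9 of 12 were higher (median 0.19, all genes -0.027). The gene that rose was Sox4, a partner of Sox9 in bile duct formation. It ran from 3.71 to 4.32 on the 8 non-tumour arrays and from 4.38 to 6.20 on the tumour arrays, so these narrowly did not overlap. Of the tumour arrays, 3 came from mouse 121, and the share of all genes separated in this way was not computed. The difference was 1.36 (SE 0.25, limma adjusted p = 0.0477), but Sox4 passed in only 8 of 25 alternative analyses, with adjusted p up to 0.157. When each of the 14 mouse-level values was left out in turn, it passed only without the tumour of mouse 90 or the tumour of mouse 93. The epithelial factor Elf3 reached 3.85 above the non-tumour mean in tumour 2 of mouse 121 and 2.49 in its unnumbered tumour, and was at -0.25 in the tumour of mouse 90. Onecut1, a hepatoblast and biliary factor, was below the non-tumour mean in 7 of 8 tumours, from -1.41 to -0.43, and at 0.26 in the tumour of mouse 81. The non-tumour arrays themselves ran from -1.34 to 1.91 for Onecut1, both in adjacent liver, and only the tumour of mouse 123 lay under them. Its difference between tumour and adjacent liver was -0.68 (SE 0.46, limma adjusted p = 0.532). Elf3 and Onecut1 were singled out after their values were seen.

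Of the 10 mature cholangiocyte genes, 0 passed the threshold in tumours against adjacent liver, with a median difference of 0.09. Cftr, the first of them, differed by -0.07 (SE 0.11, adjusted p = 0.82). Of 13 genes of the ductular reaction and liver progenitors, 0 passed and 11 were higher (median 0.27). Their first, the TWEAK receptor Tnfrsf12a, was 1.81 higher (SE 0.38, limma adjusted p = 0.0634), and it passed without the tumour of mouse 90, 93 or 124, at 1.51, 1.93 and 2.05. The duct metalloproteinase Mmp7, picked after its values were seen, was 3.40 and 2.42 above the non-tumour mean in tumour 3 and the unnumbered tumour of mouse 121, and 1.72 above it in that mouse's adjacent liver. In mouse 81 it was at 1.38 in the tumour and 1.26 in adjacent liver, and it was lowest in tumour 2 of mouse 121, at -1.15. Its mean difference was 0.026 between tumour and adjacent liver (SE 0.50, limma adjusted p = 0.987) and 1.18 between adjacent liver and control (SE 0.61, limma adjusted p = 0.999). Of 12 simple epithelial keratins and junction genes 0 passed, with a median of 0.12. Krt8, a keratin that hepatocytes themselves carry, was 0.80 higher (SE 0.23, limma adjusted p = 0.12), and with its partner Krt18 it was at 0.14 and 0.15 in the tumour of mouse 93 and between 0.75 and 1.47 in the other 7 tumours. Without the tumour of mouse 93, Krt8 passed at 0.95 (limma adjusted p = 0.0267). Krt20, a keratin of gut epithelium, was 3.01 above the non-tumour mean in the tumour of mouse 123, where Krt23 was also highest, and was likewise picked after its values were seen. Of 7 receptors for Spp1, 0 passed (median 0.31), and Cd44, the first, was 0.55 higher (SE 0.42, adjusted p = 0.588).

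Keratins and claudins were also counted as whole families. Of 50 keratin genes 0 passed between tumour and adjacent liver, 25 were higher and the median was 0.00033, with 30 of them under 4.43 on every array. Of 23 claudins 0 passed, 11 were higher and the median was -0.02, with 13 under that level on every array. In the lists for tumour against control and for adjacent against control, 0 genes passed in any list.

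**Figure D5:**
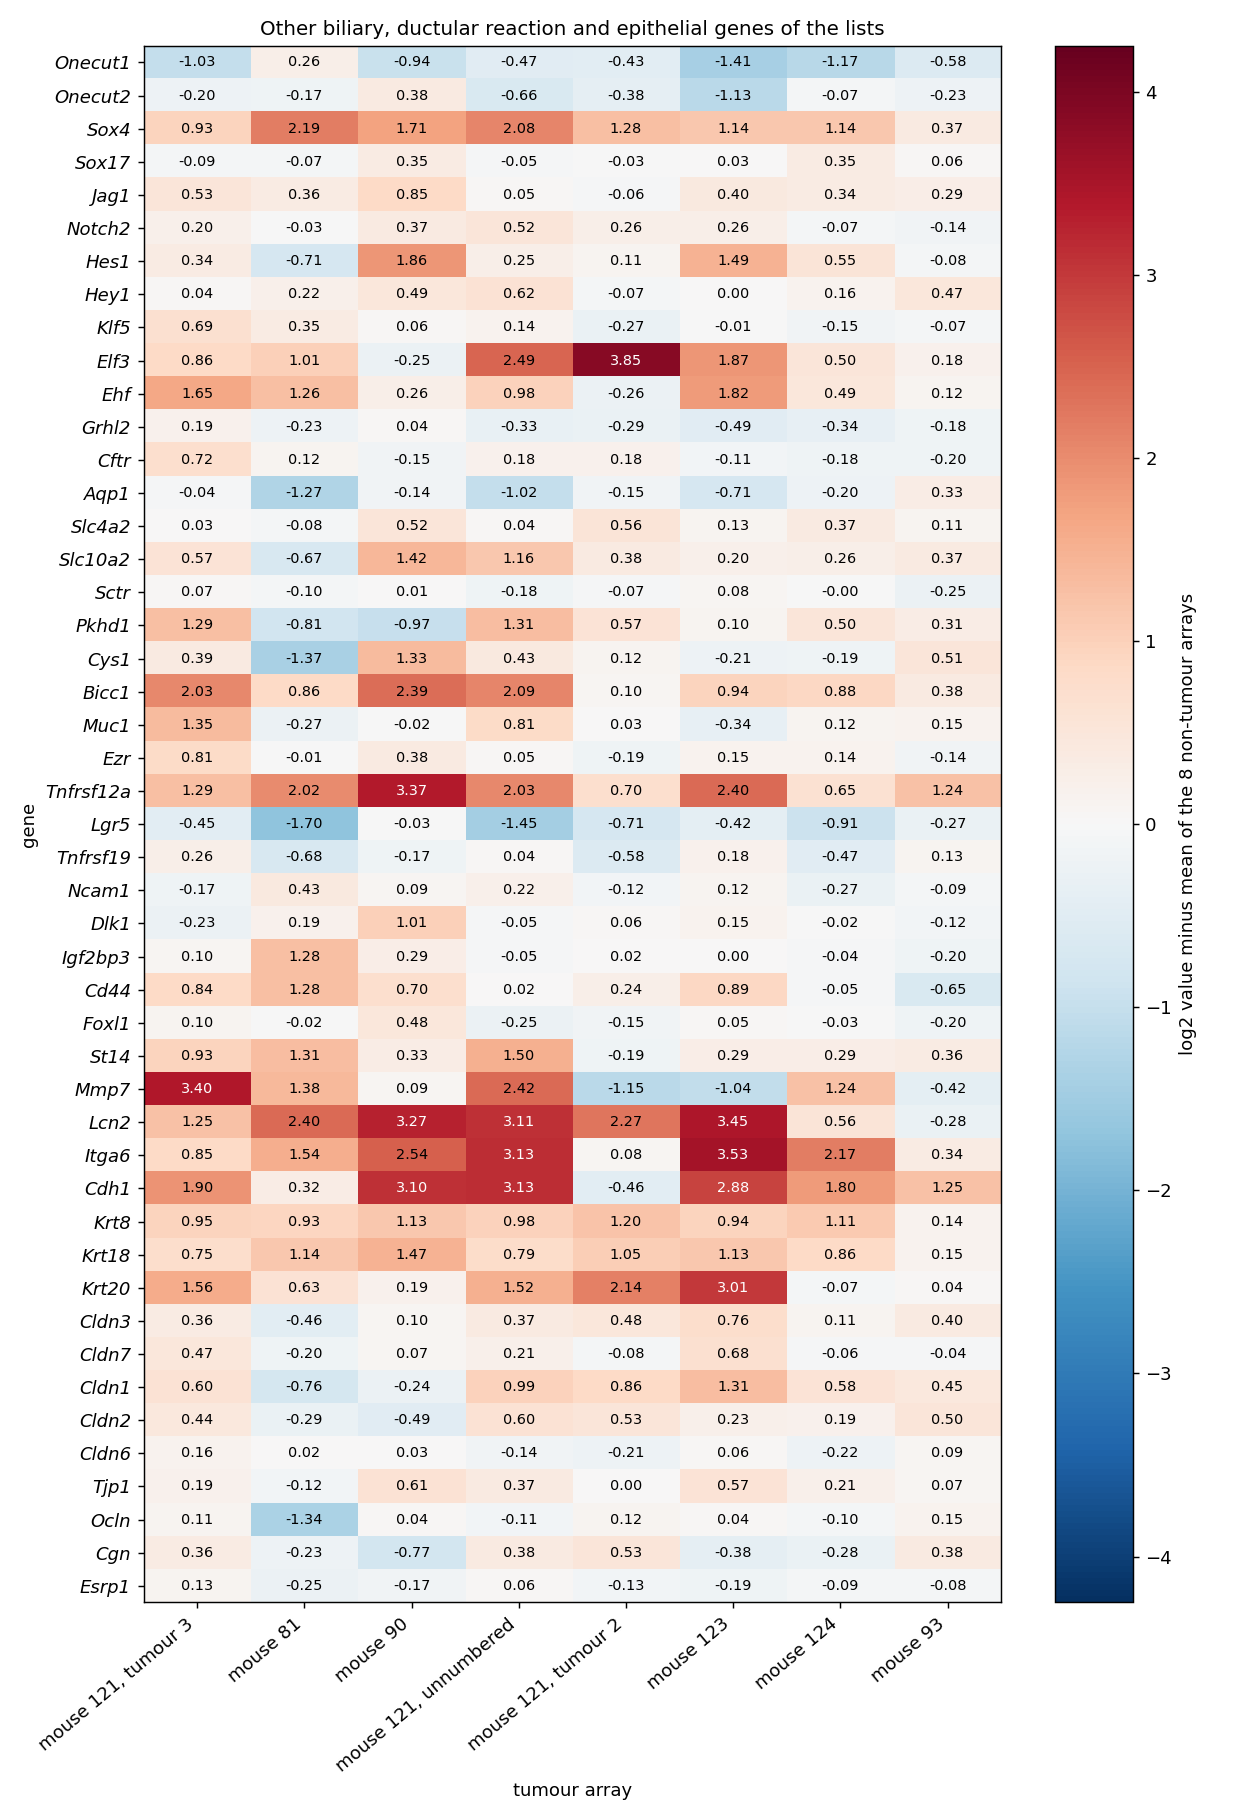
Heat map of the other genes of the biliary, ductular reaction and epithelial lists (rows) in the 8 tumour arrays (columns), as the log2 value minus the mean of the 8 non-tumour arrays. Sox4 is above 0 in all 8 tumours, from 0.37 to 2.19, and Mmp7 runs from -1.15 to 3.40.

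Lists for other cells of the tissue gave the surroundings of these values. Between tumour and adjacent liver, 0 genes passed in the lists for hepatocytes, macrophages, stellate cells, endothelium, mesothelium, lymphocytes, neutrophils, erythroid cells and pancreas. Their medians were -0.08, 0.24, 0.57, 0.42, -0.09, 0.0080, 0.19, -0.15 and -0.0098. Of the 4 pancreatic genes, 3 were under 4.43 on every array. At an unadjusted p under 0.05, 5 stellate genes were higher and 2 lower, 4 endothelial genes higher and 2 lower, and 2 macrophage genes higher and 3 lower. Of all 23279 genes, 3556 were under that p in limma in either direction, and 1619 of these, 6.95% of all genes, were higher. All 5 proliferation genes were higher at that level (median 1.42), and Mki67, the first, by 1.42 (SE 0.37, limma adjusted p = 0.0929), which passed without the tumour of mouse 90 at 1.73 (limma adjusted p = 0.0163). Their mean was -0.22 in the tumour of mouse 90, whose Prom1 and Cd24a were above all non-tumour arrays. Whether the markers follow the mix of cells was not tested.

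Among 18333 named genes, those most like each marker over the 14 mouse-level values were ranked by Pearson's r, as a description. Nearest to Prom1 were the imprinted noncoding RNA Rian (r = 0.959) and Morc4 (r = 0.949), to Cd24a Anxa3 (r = 0.942) and Tapbp (r = 0.932), and to Sox9 Prag1 (r = 0.935) and Fntb (r = 0.871). Nearest to Krt7 were Pdzd2 (r = 0.941) and Sbsn (r = 0.89), to Epcam Sbsn (r = 0.902) and Scn2a (r = 0.866), and to Krt19 Trim43c (r = 0.906) and Ppargc1a (r = 0.903). Krt23 was nearest to Actn3 (r = 0.884) and the microvillus protein Vil1 (r = 0.878), and Cldn4 to Bambi-ps1 (r = 0.864) and Cxxc4 (r = 0.855). Among the markers themselves, Krt7 and Krt19 were closest (r = 0.806), Krt19 ranking 17 of all genes for Krt7, and Epcam was closest to Krt7 (r = 0.783, rank 26). Cd24a and Prom1 reached r = 0.619 with a rank of 1202, and Sox9 was closest to Cd24a (r = 0.514, rank 1364). No p is given, since these coefficients only describe these 14 values.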

How the data were processed

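Total RNA of whole tissue was extracted with Trizol, amplified by an isothermal Nugen method, labelled with biotin and hybridised to one-colour arrays, per the labels' protocols. The authors deposited log2 values. RMA and Partek stand in the submitters' processing notes, with no role given. For the chip and its build, the sources used here give no name. Of 24479 probe sets, 23281 had 1 annotated symbol. Where a symbol had 2 probe sets (2 symbols), the brighter on average was kept, leaving 23279 genes.

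The 3 tumours of mouse 121 were averaged, and 14 values in 3 groups were fitted in limma 3.58.1 (R 4.3.3; lmFit, eBayes with an intensity trend, no block). Benjamini-Hochberg adjustment ran over the 23279 genes, with a threshold of 0.05. The fit was tested on simulated data. Mouse numbers in the titles tie tumour to adjacent liver in 4 mice, the same animals, whose deviations correlated at 0.0349 to 0.0998. No batch is labelled, and adjacent liver 1931 and tumour 93 were taken as different mice, which the titles do not settle. The number of arrays limits the precision.

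Members and 15 gene lists (136 entries, 123 found) were chosen with earlier results of these data known. Named genes are the members, up to 3 called genes per list and comparison or else the first gene present, and the 2 genes most like each member, leaving out predicted and clone-named genes. Others are stated as picked after their values were seen. Alternatives were quantile normalization, median centring, a filter on dim genes, no trend, fewer groups, other handling of mouse 121, probe set means, mouse as a block and leaving out each mouse.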

Additional observations from a re-analysis of the deposited data

Results flagged for a closer look

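In 16 groups of 5 or 6 mice, 1 value per marker and group was set against Dixon's limit for a value far from the others, which chance passes in about 1 of 20 groups, and 2 did so. Sox9 in adjacent liver of mouse 81 was 4.676, and the nearest adjacent liver was at 5.692, so the gap was 0.72 of the group's range. Krt19 in adjacent liver of mouse 124 was 4.501, and the nearest adjacent liver was at 4.103, a gap of 0.732 of the range. Without these livers the difference between tumour and adjacent liver was smaller for Sox9 and turned positive for Krt19, at 0.65 and 0.05.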

How the results depend on the processing

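The number of markers called was 0 in each comparison and stayed 0 in 24 of 25 alternatives for tumour against adjacent liver, 23 of 24 for tumour against control and 24 of 24 for adjacent against control. Leaving out each mouse in turn gave 0 to 1 in both tumour comparisons, with 1 (Prom1) without the tumour of mouse 93. Prom1 ran from 1.72 to 2.34 against adjacent liver (adjusted p 0.0157 to 0.256) and from 2.27 to 2.89 against control (0.0246 to 0.333), Sox9 from 0.65 to 1.10 (0.0664 to 0.294) and Cd24a from 0.85 to 1.29 (0.0569 to 0.391) against adjacent liver.

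Signs turned for the differences below, none of which passed the threshold, and the cause was not tested. Krt19 in tumour minus adjacent liver was 0.0030 with 8 separate tumours, 0.0097 with mouse as a random replicate block, 0.13 with the fixed replicate block in the 4 paired mice, and -0.28 to 0.091 when each mouse was left out. Cftr was 0.0254 with separate tumours and 0.0169 with the random replicate block. Leaving out each mouse gave, for tumour minus control, -0.093 to 0.39 for Krt7, -0.14 to 0.23 for Krt19 and -0.26 to 0.026 for Cldn4. For adjacent minus control it gave -0.39 to 0.066 for Krt7, -0.78 to 0.054 (without control mouse 10) for Cd24a and -0.095 to 0.19 for Cldn4. The replicate block changed no marker's call.

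Counts over all genes moved more. Against 36 between tumour and adjacent liver there were 22 with quantile normalization, 16 with median centring, 181 with the filter on dim genes, 8 with only these groups, 87 with separate tumours, 157 with the unnumbered tumour of mouse 121 alone, 206 with the random replicate block and 0 with the fixed one. Leaving out a mouse gave 5 (adjacent liver of mouse 123 or 124, tumour of mouse 123) to 743 (tumour of mouse 93). Against 6 between tumour and control there were 35 with the filter, 3 without the trend, 31 with separate tumours, 33 with the unnumbered tumour, 24 with the random block, 15 without tumour 3 of mouse 121, an alternative chosen after seeing the data, and 0 (control mouse 12) to 242 (tumour of mouse 93) with a mouse left out. The filter kept 12864 genes and gave no value for Krt23, Epcam, Cldn4 and Cftr.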
